A study of Sorghum bicolor with 9 samples.

Results

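In sorghum (Sorghum bicolor), a drought-tolerant cereal with C4 photosynthesis, 4 genes of the abscisic acid pathway were followed in the leaf at 3 levels of water supply. They are 3 genes described as type 2C protein phosphatases and 1 described as an abscisic acid receptor, out of 34366 genes with a deposited level, and they were taken by their identifiers. The genes had been picked because they differed between drought and control in these same 9 libraries. Their differences from the control are therefore given as a description, with no test, and the test is kept for severe against mild drought, which did not enter the choice. All 4 genes passed the filter on low counts and were among the 22080 genes tested.

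Leaves had normal water supply (the control), a mild drought or a severe drought. Each group had 3 strand-specific libraries, prepared from total RNA. The labels give no genotype, plant age, length of treatment or soil water content, and no other agent. Whether each library stands for another plant is not stated, so the p-values cover no more than the spread among these 9 samples, and that may be technical.

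Abscisic acid is the hormone by which plants close their stomata and switch on protective genes when water is short. Its receptors, the PYR/PYL proteins, bind the hormone and then bind and block type 2C phosphatases of one clade. Those phosphatases otherwise keep the SnRK2 kinases (called SAPK in rice) switched off, so a receptor acts for the signal and a phosphatase against it. In Arabidopsis and rice, genes of this phosphatase clade are themselves induced by the hormone, and several receptor genes are repressed by it.

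The gene table held 27854146 to 41228478 counts per library, of which 20772692 to 38711314 fell on the 34366 genes. Libraries differed in a way that the water levels did not explain. On the first principal component 4 libraries (control 3, mild drought 2, and both severe drought 1 and 2) lay at 28.7 to 123, apart from the other 5 at -61.7 to -46.2. Leaf identity was checked with chlorophyll a-b binding proteins, of which 14 of 15 genes had counts, with a summed level of 11550 to 47632 CPM (counts scaled per 1e6 of the effective library size) in control, 9238 to 31450 CPM in mild drought and 16342 to 37012 CPM in severe drought. This sum was 47632 CPM in control 3, 31450 CPM in mild drought 2, and 37012 and 32129 CPM in severe drought 1 and 2. In the other 5 libraries it was 9238 to 16342 CPM. The sum thus split the libraries as the first component did, and the reason was not tested. Genes described as Casparian strip proteins, which mark root endodermis, summed to 13 to 38.7 CPM over all libraries, and 1 of these 4 genes had no count.

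The phosphatases are described first. Phosphatase 2C 68 (SORBI_3002G172000, chromosome 2, 54480172 to 54484180) is named after its best match in rice. It had 3.5, 6.66 and 7.97 CPM in control libraries 1, 2 and 3, then 21.3, 35.3 and 49.4 CPM in mild drought and 16.9, 35.6 and 52.8 CPM in severe drought. Every drought library lay above every control library, and both drought groups covered nearly the same range. The log2 difference was 2.55 ± 0.50 (SE) for mild drought, with a mean of 35.3 ± 14.1 CPM (SD, n = 3) against 6.04 ± 2.3 CPM in control. It was 2.54 ± 0.50 for severe drought, with a mean of 35.1 ± 18 CPM. Positions are printed as deposited and span whole gene models, so exons and untranslated regions cannot be placed. The sources used here name no genome build for them.

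Phosphatase 2C 30 (SORBI_3001G424400, chromosome 1, 70449095 to 70456551) is likewise named from rice. Its level was 4, 5.68 and 9.82 CPM in control 1, 2 and 3, 27.3, 42.9 and 90.6 CPM in mild drought, and 16.4, 41.7 and 76.1 CPM in severe drought. All drought libraries were again above all control libraries, and library 3 was the highest of its group at each water level. The log2 difference was 3.04 ± 0.66 in mild drought, where the mean of 53.6 ± 33 CPM was 8.24 times the 6.5 ± 3 CPM in control. In severe drought it was 2.78 ± 0.65, with a mean of 44.7 ± 30 CPM. The size of both differences leaned on single libraries, since the log2 difference was 2.43 without mild drought 3 and 2.16 without severe drought 3.

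Phosphatase 2C 37 (SORBI_3006G018400, chromosome 6, 3076063 to 3082312) was the least abundant of the 3 by CPM and differed most from the control. It had 25, 31 and 115 counts in the control libraries, which is 0.662, 1.05 and 3 CPM. Its level was 7, 18.9 and 22.5 CPM in mild drought and 11.4, 12.2 and 23.6 CPM in severe drought, again with no overlap with control. The log2 differences were 3.35 ± 0.67 for mild and 3.31 ± 0.67 for severe drought. Without control 3, whose level was the highest of its group, they were 4.24 and 4.20. Among the 3 phosphatases, the description of 2C 37 is the only one in the deposited tables that carries a protein phosphatase 2C domain (Pfam), so the names of the others rest on the Swiss-Prot match.

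The receptor gene lay on the other side of the control. PYL4 (SORBI_3001G403300, chromosome 1, 68842276 to 68843883), named after its match in Arabidopsis, had 29.2, 33.9 and 20.2 CPM in control 1, 2 and 3. It had 3.91, 3.3 and 8.84 CPM in mild drought and 5.71, 8.29 and 7.99 CPM in severe drought. All drought libraries were below all control libraries, with the highest of them at 8.84 CPM and the lowest control library at 20.2 CPM. The mean was 5.35 ± 3.04 CPM in mild drought, which is 19.3% of the 27.8 ± 6.98 CPM in control (log2 -2.38 ± 0.41). In severe drought it was 7.33 ± 1.41 CPM, or 26.4% of the control mean (log2 -1.92 ± 0.40). In bulk leaf RNA, fewer cells of a type and less RNA per cell cannot be told apart.

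**Figure D1:**
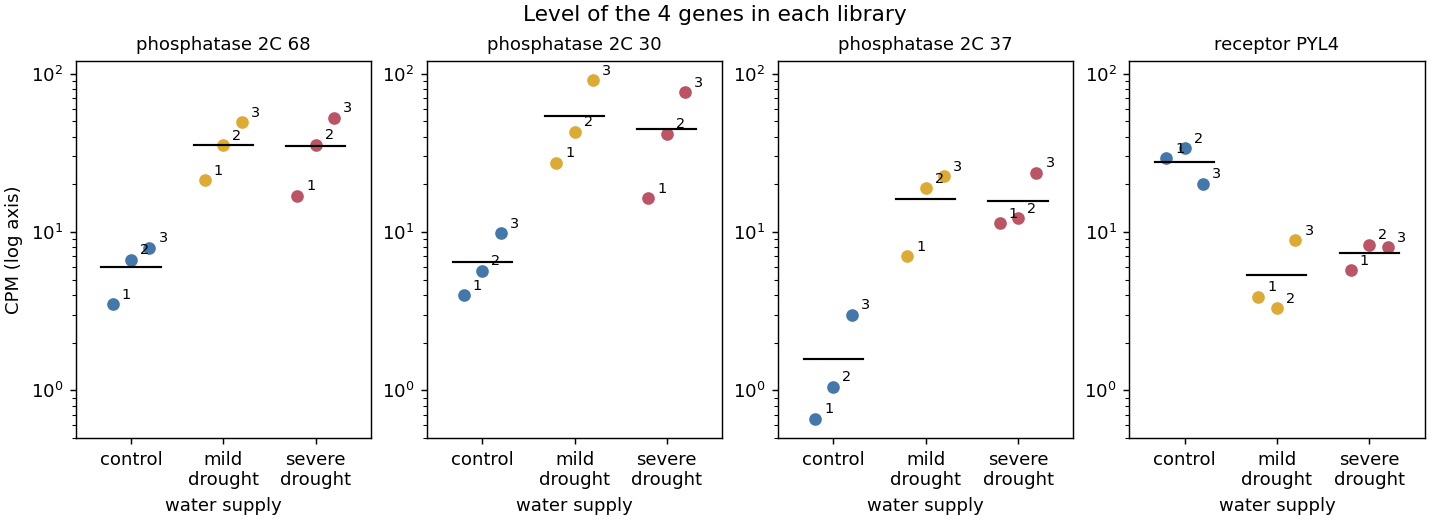
Level of the 4 genes in CPM on a log axis, in control, mild drought and severe drought; each point is 1 library, with its number, and the bar is the mean of the group. The 3 phosphatases lie higher and PYL4 lower in all 6 drought libraries than in all 3 control libraries, while the drought groups overlap in all 4 genes.

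In all 4 genes, then, the 6 drought libraries lay wholly on one side of the 3 control libraries. Of the 22080 genes tested, 2.37% lay wholly above the control and 3.24% wholly below. Taken 1 comparison at a time, groups did not overlap, with the drought group higher, in 6.2% of genes in mild drought and 7.64% in severe drought, and with it lower in 6.38% and 9.82%. The genes were chosen on these contrasts, so nothing is read from their count. Summed levels of cell type markers are given beside these values, with no test. For guard cells, the cells that act on the abscisic acid signal at the stomata, the 7 genes of that list (SLAC1, a malate channel and KAT potassium channels, all with counts, 5 of them tested) summed to 111 to 115 CPM in control, 39.6 to 90.7 CPM in mild drought and 58.8 to 110 CPM in severe drought, so every drought sum was below every control sum. All 28 mesophyll genes had counts, and their sums were 35957 to 44607 CPM in control, 25465 to 62997 CPM in mild drought and 51725 to 94790 CPM in severe drought, where they lay wholly above the control. The sums of 6 vascular genes were 778 to 901 CPM in control, 679 to 917 CPM in mild drought and 695 to 751 CPM in severe drought, where they lay wholly below it. The sums of 6 bundle sheath genes overlapped the control in both drought groups. They were 4044 to 4672 CPM in control, 2852 to 4841 CPM in mild drought and 3689 to 5153 CPM in severe drought. The part of these cell types in the levels of the 4 genes was not tested.

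Severe drought was next set against mild drought, to ask whether the 4 genes followed the strength of the shortage. None of them differed beyond the spread between libraries, and the groups overlapped in each. Over all genes, the groups did not overlap, with severe drought higher, in 2.99% and, with severe drought lower, in 4.83%. Phosphatase 2C 68 had 35.1 ± 18 CPM in severe and 35.3 ± 14.1 CPM in mild drought, a log2 difference of -0.01 with a 95% interval of -1.08 to 1.06 (adjusted p = 0.999, edgeR quasi-likelihood test, Benjamini-Hochberg over all genes). For 2C 30 the log2 difference was -0.26 (-1.64 to 1.12, adjusted p = 0.996) and for 2C 37 it was -0.04 (-1.42 to 1.34, adjusted p = 0.999). PYL4 had 7.33 ± 1.41 CPM in severe and 5.35 ± 3.04 CPM in mild drought, a log2 difference of 0.46 (-0.43 to 1.34, adjusted p = 0.996). The intervals still include changes of more than 2-fold in either direction for the phosphatases, so equal levels were not shown. Over all 22080 genes edgeR called 0 in this comparison (0%), with 815 at an unadjusted p under 0.05 (3.69%), and DESeq2 called 23 of 21895 (0.105%), none of the 4 genes among them.

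**Figure D2:**
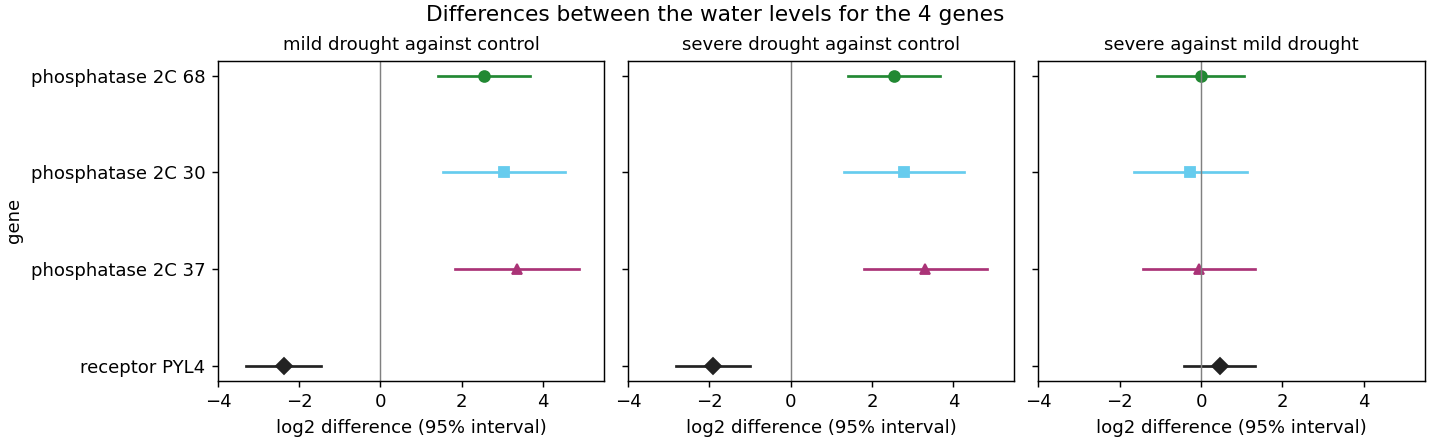
Log2 differences of the 4 genes in the 3 comparisons, with 95% intervals from edgeR; positive values are higher in the group named first. The first and the second panel describe the contrasts on which the genes were chosen, and in the third panel all 4 intervals include 0, with estimates from -0.26 for 2C 30 to 0.46 for PYL4.

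By their level, the groups of each gene thus fell into the control on one side and both drought groups on the other. From low to high, the phosphatases stood in the order control, severe drought, mild drought by mean CPM, and PYL4 in the order mild drought, severe drought, control. In each gene the 2 drought groups, neighbours in that order, did not differ beyond their spread.

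The 3 phosphatases also shared a pattern that the choice of genes did not fix. In each of the 3 groups they placed the libraries in the same order, with library 1 the lowest and library 3 the highest. Of all 22080 genes tested, 85 (0.385%) had this order in all 3 groups. The order was taken from the 3 genes themselves, so that share does not measure how unusual their agreement is. The 3 genes were read in the same libraries, so they are not independent cases of it. Their levels within a group differed by up to 4.66-fold (2C 30 in severe drought) and by no less than 2.08-fold (2C 37 in severe drought). PYL4 did not share this order, with library 3 lowest in control, library 2 lowest in mild drought and library 1 lowest in severe drought, and its levels within a group differed by 1.45- to 2.68-fold. The order did not follow the first principal component, on which control 3 and mild drought 2 lay high and mild drought 3 and severe drought 3 low. The numbers are only names of libraries, since the labels tie no library of one group to one of another.

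**Figure D3:**
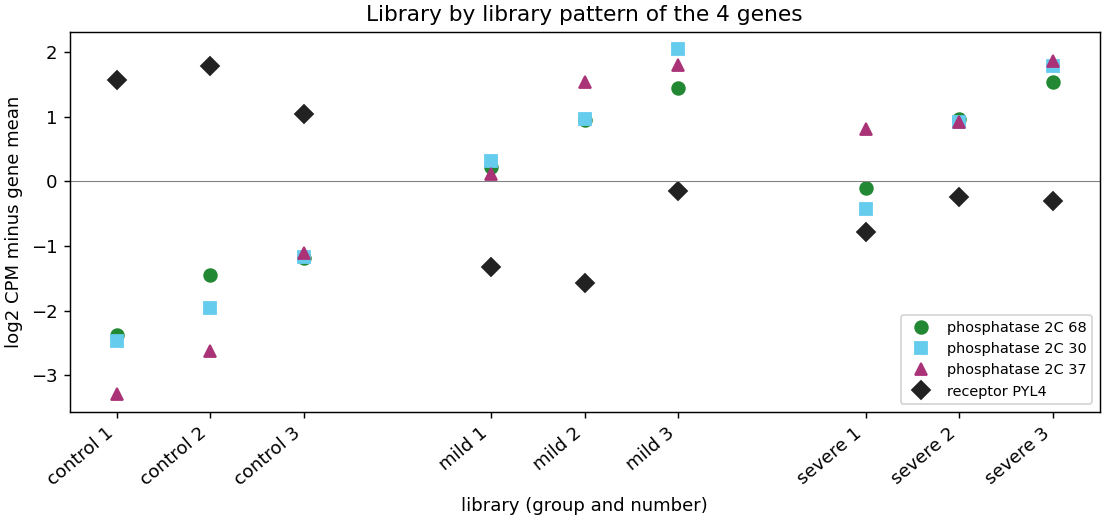
Log2 CPM of each of the 4 genes less its own mean over the 9 libraries, by library; each marker shape is a gene, and libraries are grouped by water supply. The 3 phosphatases rank the libraries of each group alike, and PYL4 lies above 0 in the 3 control libraries and below 0 in the 6 drought libraries.

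How close these patterns were was measured as the root mean square difference of log2 CPM over the 9 libraries, after each gene was centred on its own mean. This measure includes the step between control and drought on which the 4 genes were chosen, so their closeness to each other and distance from the median gene are partly set by that choice. The search took in 11100 genes with a Swiss-Prot name and a mean of at least 5 CPM. The gene most like 2C 68 was 2C 30, at 0.30, and the gene most like 2C 30 was 2C 68, against a median over all genes searched of 1.35 for 2C 68 and 1.55 for 2C 30. A glutamate decarboxylase gene (SORBI_3007G152800, chromosome 7, 58528825 to 58534278), whose enzyme makes gamma-aminobutyric acid, came second for both, at 0.37 and 0.49. It had 35.1 ± 18.4 CPM in control, 142 ± 43.5 CPM in mild drought and 189 ± 137 CPM in severe drought. Next for 2C 68, at 0.46, was a 9-cis-epoxycarotenoid dioxygenase gene (SORBI_3001G155300), described below with the synthesis genes, and next for 2C 30 was 2C 37, at 0.56. With each gene centred within each group instead, a measure added after the values were seen, the step no longer entered. The distance between 2C 68 and 2C 30 was then 0.24, against medians of 0.64 for 2C 68 and 0.79 for 2C 30, and 2 genes lay closer to 2C 68 and 0 closer to 2C 30. Within groups 2C 37 lay at 0.41 from 2C 68 and 0.44 from 2C 30, with 53 and 91 genes closer to it.

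For 2C 37 the nearest gene was one described as indole-2-monooxygenase (SORBI_3007G003400), at 0.42, which lies on chromosome 7 at 315339 to 321801. In maize this enzyme is a P450 of benzoxazinoid synthesis. It had 8 ± 4.93 CPM in control, 72.9 ± 29.3 CPM in mild drought and 100 ± 30.1 CPM in severe drought. Next came 2C 30 at 0.56 and 2C 68 at 0.61. The genes nearest to PYL4 were less like it, at 0.60 for serine carboxypeptidase 1 (SORBI_3008G073900), 0.61 for a gene described as PYRICULARIA ORYZAE RESISTANCE 21 (SORBI_3006G060800) and 0.61 for a probable allantoinase (SORBI_3006G270100), against a median of 1.18. Serine carboxypeptidase 1 had 52.4 ± 10.7 CPM in control, 23.5 ± 5.48 CPM in mild drought and 21.8 ± 5.58 CPM in severe drought. Allantoinase, an enzyme of purine breakdown, had 50.7 ± 24.5, 19.9 ± 13.7 and 15 ± 3.15 CPM in control, mild and severe drought. PYRICULARIA ORYZAE RESISTANCE 21 had 845 ± 119 CPM in control, 332 ± 88.3 CPM in mild drought and 420 ± 89.5 CPM in severe drought.

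Levels of different genes were compared per length, as FPKM (fragments per kilobase of transcript and per 1e6 fragments). Here the means of the 3 phosphatases in mild drought were 7.52 ± 2.58 (2C 68), 6.18 ± 3.14 (2C 30) and 7.73 ± 3.78 FPKM (2C 37). In severe drought they were 6.02 ± 2.93, 4.23 ± 2.78 and 6.15 ± 2.67 FPKM in the same order of genes, and severe drought 1 alone had 3.21, 1.72 and 4.84 FPKM. In control they had 1.29 ± 0.475, 0.768 ± 0.356 and 0.682 ± 0.675 FPKM in the same order of genes. PYL4 had 18 ± 4.32 FPKM in control, 3.32 ± 1.51 FPKM in mild drought and 3.92 ± 0.572 FPKM in severe drought. The summed FPKM of the 3 phosphatases was 0.0759, 0.113 and 0.333 times that of PYL4 in control 1, 2 and 3. It was 4.59, 10.2 and 5.53 times that of PYL4 in mild drought and 2.96, 3.45 and 5.76 times in severe drought. Of these genes alone, each control library held more receptor than phosphatase transcript, and each drought library more phosphatase transcript. The genes were chosen on these contrasts, so the switch largely restates that choice. It does not describe the receptor and phosphatase families as wholes.

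Within a library the phosphatases kept their ratios to different degrees. The FPKM of 2C 30 was 0.471 to 0.682 times that of 2C 68 in control, 0.672 to 1.01 times in mild drought and 0.535 to 0.796 times in severe drought. The FPKM of 2C 37 was 0.302 and 0.257 times that of 2C 68 in control 1 and 2 but 0.851 times in control 3, and 0.75 to 1.22 times in mild drought and 0.757 to 1.51 times in severe drought. The per-length level of 2C 37 needs care in the control. Its counts per unit of FPKM, relative to those of PYL4 in the same library, were 1.91 and 1.84 in control 1 and 2, and 1.28 to 1.42 in the other 7 libraries. The same measure varied less for 2C 68 (2.92 to 3.23) and 2C 30 (5.28 to 5.85).

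Each gene was then placed in its family. Of 8 genes described as abscisic acid receptors, PYL4 had rank 3 by mean FPKM in control and rank 4 in both drought groups. It held 11.1%, 12.4% and 7.43% of the receptors' summed FPKM in control 1, 2 and 3. In mild drought its share was 1.9%, 2.17% and 3.63%, and in severe drought it was 2.67%, 3.6% and 3.74%. All 6 drought shares were below all 3 control shares, in contrasts on which PYL4 was chosen, so this is a description and no further support. The share is taken within a library and does not depend on how libraries are scaled. PYL3 (SORBI_3004G113800) held most of the family's level, with 113 ± 10.6 FPKM in control, 90 ± 11.6 FPKM in mild drought and 83.8 ± 5.2 FPKM in severe drought. On the FPKM scale the median gene was lower by 0.29 on the log2 scale in severe drought than on the CPM scale, so levels of severe drought in FPKM are to be read against that shift.

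The 3 phosphatases were a small part of 97 genes described as protein phosphatases 2C. In control 1, 2 and 3 they held 0.124%, 0.216% and 0.33% of the family's summed FPKM. They held 0.891%, 1.99% and 2.33% in mild drought and 0.888%, 1.43% and 2.44% in severe drought. Each drought library lay above each control library, in contrasts on which the genes were chosen. The FPKM of the other 94 genes summed to 1206 ± 107 in control, 1219 ± 40.8 in mild drought and 1023 ± 67.4 in severe drought. By mean FPKM in the family, 2C 68 ranked 64 in control, 45 in mild drought and 41 in severe drought. The ranks were 66, 47 and 51 for 2C 30 and 67, 43 and 40 for 2C 37.

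**Figure D4:**
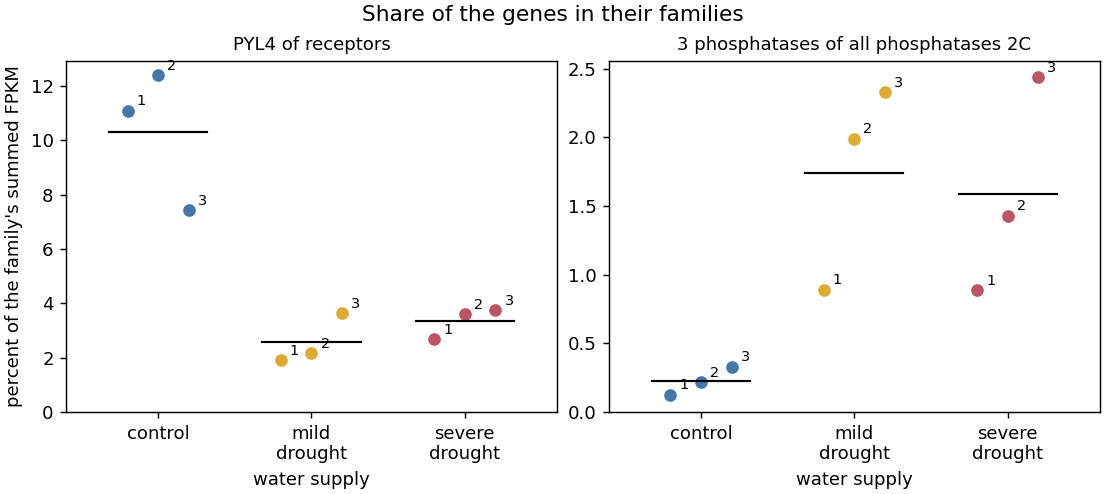
Share of PYL4 in the summed FPKM of 8 abscisic acid receptor genes and of the 3 phosphatases in that of 97 phosphatase 2C genes, in percent, by library (points, with library numbers) and mean of the group (bars). The mean share of PYL4 is 10.3% in control, 2.57% in mild drought and 3.34% in severe drought, and that of the phosphatases is 0.223%, 1.74% and 1.59% in the same order.

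Other genes with the same Swiss-Prot name stood near their control levels. The name phosphatase 2C 68 is carried by 6 genes, of which 4 were tested. The 3 others tested had log2 differences of -0.16 ± 0.19 (SORBI_3001G446900), -0.32 ± 0.18 (SORBI_3002G360701) and -0.21 ± 0.31 (SORBI_3003G139366) in mild drought against control. In severe drought against control they had -0.28 ± 0.19, -0.31 ± 0.18 and -0.07 ± 0.31. The most abundant of them, SORBI_3002G360701, had 96.8 ± 12.2 CPM in control, 77.6 ± 11.3 CPM in mild drought and 78.1 ± 11.4 CPM in severe drought. The other gene named PYL4 (SORBI_3009G170700) had 32 counts in all 9 libraries together and was not tested, and 2C 30 and 2C 37 were each the only gene of their name.

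Other genes were counted in lists by role in the pathway, without the 4 genes. The phosphatase list holds every gene described as a protein phosphatase 2C, of whichever clade. Not all listed genes therefore need belong to the pathway. Of 141 listed genes 115 were tested, 74 of them phosphatases 2C. For mild drought, edgeR called 0 of them against the control. Before adjustment 14 (12.2%) had p under 0.05, beside 6.4% of all genes, of which 0% were called. For severe drought it also called 0, and 15 (13%) had p under 0.05 before adjustment, beside 8.67% of all genes, of which again 0% were called. DESeq2 called 3 of the 115 in mild drought, beside 0.95% of all genes it tested. In severe drought it called 1 of the 115, beside 1.54% of all genes. Both drought comparisons share the same control libraries, so their values are given side by side and not as independent evidence.

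Among the other receptors, the proteins that bind the hormone, none of the 4 tested passed in either comparison. The median log2 difference was -0.43 in mild drought and -0.10 in severe drought, beside 0.02 and -0.02 over all genes. PYL10 (SORBI_3001G289100) had 12.6 ± 2.76 CPM in mild drought and 18.4 ± 1.46 CPM in control (log2 -0.55 ± 0.24, adjusted p = 0.772 in edgeR). In severe drought it had 11 ± 2.55 CPM (log2 -0.74 ± 0.24, adjusted p = 0.447). PYL5 (SORBI_3009G080200) and PYL3 had log2 differences of -0.26 ± 0.24 and -0.30 ± 0.21 in mild drought and -0.06 ± 0.24 and -0.13 ± 0.21 in severe drought. PYL4 thus had the largest difference of the 5 receptor genes tested, in a contrast on which it was chosen.

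The other 94 phosphatases 2C, of which 74 were tested, had a median log2 difference of -0.07 in mild drought and -0.04 in severe drought. In mild drought 32 were above 0 and 42 below, and in severe drought 33 and 41. At an unadjusted p under 0.05 in edgeR, 7 were higher and 3 lower in mild drought, and 3 and 5 in severe drought. These genes span the whole family, and the clade that the receptors bind was not separated from the rest. The medians therefore do not show how the other genes of that clade stood. Phosphatases 2C 49 (SORBI_3009G161800) and 2C 6 (SORBI_3003G198200) rose in mild drought by DESeq2, with adjusted p = 0.0156 and 0.0247. Neither passed in edgeR (adjusted p = 0.53 and 0.528). Phosphatase 2C 49 had 55.2, 40.1 and 85.6 CPM in mild drought 1, 2 and 3, all above the 16.7, 20 and 11.3 CPM of control 1, 2 and 3. Its mean was 60.3 ± 23.2 CPM in mild drought and 16 ± 4.39 CPM in control (log2 1.92 ± 0.46), with 38 ± 21.9 CPM in severe drought (log2 1.25 ± 0.45). Phosphatase 2C 6 had 45.1 ± 8.59 CPM in mild drought and 20.8 ± 3.47 CPM in control (log2 1.11 ± 0.26), with 34.9 ± 11.1 CPM in severe drought (log2 0.74 ± 0.26). Phosphatase 2C 11 (SORBI_3004G065200) fell in severe drought by DESeq2 (adjusted p = 0.00191, and 0.294 in edgeR), to 22.6 ± 5.55 CPM against 56 ± 6.08 CPM in control. Its libraries had 20.6, 18.4 and 28.9 CPM in severe drought and 59.2, 49 and 59.8 CPM in control, with no overlap. Phosphatase 2C 41 (SORBI_3006G225600) passed in neither tool and had 26.1 ± 4.34 CPM in mild drought, 25.7 ± 2.99 CPM in severe drought and 39.1 ± 3.47 CPM in control.

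**Figure D5:**
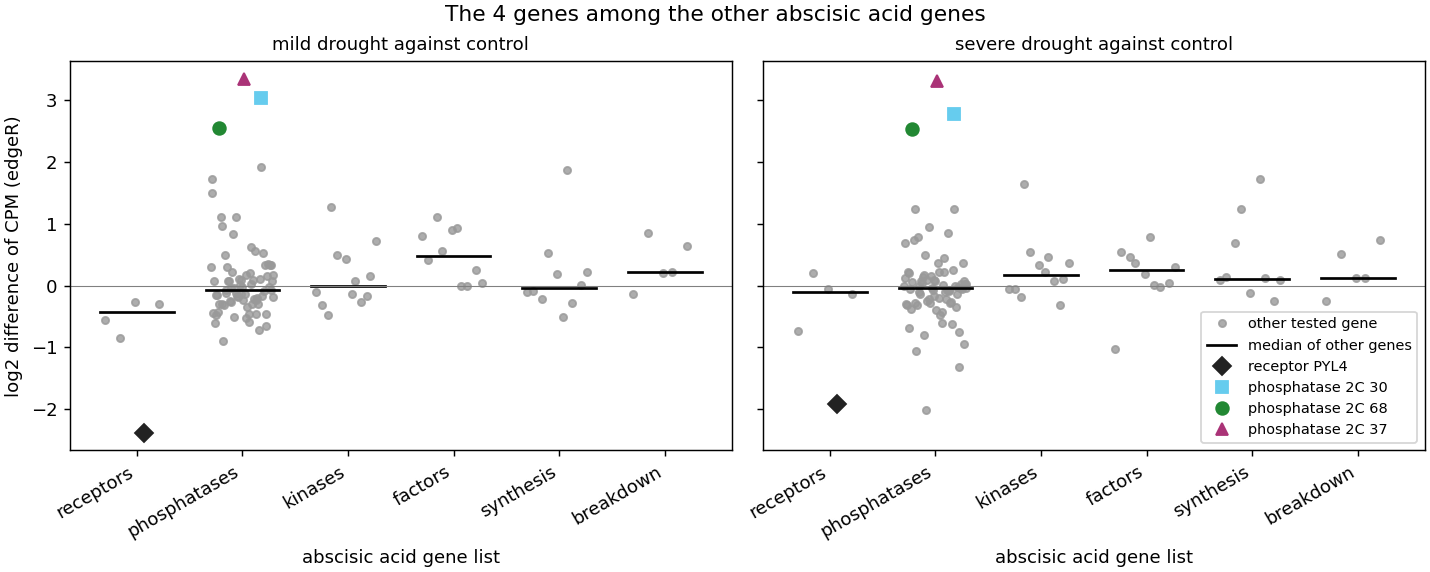
Log2 differences (edgeR) of all tested genes of the 6 lists by role in mild and severe drought against control. The phosphatase list holds the whole 2C family. Grey points are other genes, bars their median, and coloured shapes the 4 genes. The 3 phosphatases (2.54 to 3.35) lie above all 74 other tested phosphatases, and PYL4 (-2.38 and -1.92) below the 4 other tested receptors; the 4 genes were chosen on these contrasts.

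The genes described as SAPK kinases showed no call. They were taken by name, and those that the phosphatases hold back were not separated from the rest. All 12 were tested, with medians of -0.01 in mild and 0.17 in severe drought. SAPK3 (SORBI_3001G294400) had 5.61 ± 3.76 CPM in mild drought, 7.19 ± 3.15 CPM in severe drought and 2.31 ± 1.19 CPM in control, with log2 differences of 1.28 ± 0.57 and 1.64 ± 0.58 (adjusted p = 0.776 and 0.495 in edgeR). SAPK10 (SORBI_3001G168400) had 43.9 ± 3.07 CPM in severe drought and 32 ± 2.45 CPM in control (log2 0.46 ± 0.19). SAPK7 (SORBI_3004G173500) had 25.9 ± 2.93 CPM in mild drought and 18.5 ± 2.91 CPM in control (log2 0.49 ± 0.34). SAPK4 (SORBI_3003G370100) had 63.7 ± 7.09 CPM in severe and 49.9 ± 2.1 CPM in mild drought (log2 0.35 ± 0.26).

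The factors that the kinases activate, bZIP proteins that bind abscisic acid response elements, had a median log2 difference of 0.49 in mild and 0.25 in severe drought over 10 tested genes, and 8 of the 10 were above 0 in each. None passed in edgeR or DESeq2. bZIP46 (SORBI_3010G081800) had 17.7 ± 4.87 CPM in mild drought, 15.9 ± 2.2 CPM in severe drought and 9.19 ± 1.09 CPM in control, with log2 differences of 0.94 ± 0.25 and 0.79 ± 0.25 (adjusted p = 0.569 and 0.447 in edgeR). bZIP23 (SORBI_3004G309600) had 59.4 ± 8.26 CPM in mild drought, 64.9 ± 7.77 CPM in severe drought and 44.6 ± 9.1 CPM in control. bZIP12 (SORBI_3003G368300) had 11.2 ± 4.31 CPM in mild drought and 5.97 ± 1.59 CPM in control, and 6.8 ± 2.63 CPM in severe drought.

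Genes that make and break down the hormone were read last. The 9-cis-epoxycarotenoid dioxygenase gene SORBI_3001G155300 (chromosome 1, 12561395 to 12563230) codes for an enzyme of the committed step of abscisic acid synthesis. It had 10.2 ± 5.64 CPM in mild drought, 9.09 ± 2.21 CPM in severe drought and 2.76 ± 1.4 CPM in control. It rose in mild drought by DESeq2 (adjusted p = 0.0445) and did not pass in edgeR (log2 1.88 ± 0.51, adjusted p = 0.6), and in severe drought it passed in neither (log2 1.72 ± 0.51, adjusted p = 0.422 in edgeR and 0.068 in DESeq2). The 3 other dioxygenase genes that were tested passed in neither comparison. SORBI_3004G268500 (NCED1) was far more abundant and varied widely, at 1137 ± 1018 CPM in mild drought, 1334 ± 514 CPM in severe drought and 1210 ± 766 CPM in control (log2 -0.09 ± 0.95 and 0.14 ± 0.95). Both NCED3 genes, SORBI_3002G168700 and SORBI_3002G168800, had log2 differences of -0.22 ± 0.89 and 0.01 ± 0.66 in mild drought and 0.69 ± 0.89 and -0.24 ± 0.67 in severe drought. The 10 tested synthesis genes had medians of -0.04 and 0.11 in mild and severe drought. A molybdenum cofactor sulfurase gene (SORBI_3010G224000), needed by the last oxidase of the pathway, had 53.7 ± 15.9 CPM in mild drought, 50.4 ± 6.55 CPM in severe drought and 76.2 ± 2.97 CPM in control. A second such gene (SORBI_3002G297000) had log2 differences of 0.19 ± 0.22 and -0.11 ± 0.22. Zeaxanthin epoxidase (SORBI_3006G097500), an early enzyme of the route, had -0.28 ± 0.23 and 0.12 ± 0.23. All 5 genes of abscisic acid 8'-hydroxylases, which inactivate the hormone, were tested, and none passed. Hydroxylase 1 (SORBI_3004G268700) had 15.5 ± 6.88 CPM in mild drought, 12.3 ± 3.54 CPM in severe drought and 8.63 ± 4.61 CPM in control. Hydroxylases 3 (SORBI_3007G156300) and 4 (SORBI_3009G000700) had log2 differences of 0.64 ± 0.50 and 0.20 ± 0.21 in mild drought and 0.74 ± 0.50 and 0.13 ± 0.21 in severe drought.

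Between the drought levels 0 of the 115 other listed genes passed in edgeR or DESeq2, with 4 at an unadjusted p under 0.05 in edgeR (3.48%). Phosphatase 2C 65 (SORBI_3002G397600) came nearest, with 16.3 ± 3.37 CPM in severe and 30.1 ± 3.53 CPM in mild drought (log2 -0.88 ± 0.20, adjusted p = 0.996 in edgeR and 0.0536 in DESeq2). A gene described as ABSCISIC ACID-INSENSITIVE 5-like protein 2 (SORBI_3001G388300) had 0.738 ± 0.25 CPM in severe and 2.64 ± 1.05 CPM in mild drought.

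The surroundings of the 4 genes in the deposited positions were read for neighbours within 12000 bases. A gene without a description (SORBI_3002G171901) ended 277 bases before the start coordinate of 2C 68. It had 20.4 ± 9.8 CPM in mild drought, 15.9 ± 3.34 CPM in severe drought and 14.9 ± 3.48 CPM in control, with log2 differences of 0.45 ± 0.35 and 0.10 ± 0.35. Both described genes next to 2C 30 that were tested stood near the control level, with log2 differences of 0.28 ± 0.20 in mild and 0.20 ± 0.20 in severe drought for a tropinone reductase homolog (SORBI_3001G424300). Those of a mannose-1-phosphate guanylyltransferase gene (SORBI_3001G424500) were 0.22 ± 0.20 and 0.04 ± 0.20. A lncRNA transcript, LINC742, lay 31 bases from the start coordinate of 2C 30 and had 13 counts in control 2, 18 in mild drought 2, 19 in mild drought 3, 1 in severe drought 2 and none in the other 5 libraries. Within the span of 2C 37 lay SORBI_3006G018500, with 8 counts in mild drought 2 and none elsewhere. None of the neighbours that were tested passed in edgeR. A gene without a description, SORBI_3002G171800, had at most 16 counts per library and a log2 difference of -3.18 ± 1.57 in severe drought (adjusted p = 0.625 in edgeR).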

How the data were processed

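Each of the 9 libraries took its group and number from its label. The authors deposited whole-number read counts and FPKM values, for genes and for lncRNA transcripts in separate tables, per the file headers. The submitters' processing notes name StringTie 1.3.3b, STAR and HISAT2 2.0.4, without saying what each did, and no build. The 4 genes and the gene lists were chosen with earlier results of these data known.

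Counts of the 34366 genes in the FPKM table were filtered with filterByExpr, which left 22080, and scaled by TMM (factors 0.807 to 1.12). All 9 libraries entered 1 quasi-likelihood fit without covariates (edgeR 4.0.16, R 4.3.3), with Benjamini-Hochberg adjustment and a threshold of 0.05. Alternatives were DESeq2 1.42.0, limma 3.58.1 on log2(FPKM + 0.1), other scalings and filters, a replicate block and leaving out each library. The common biological coefficient of variation was 0.503. Likeness was searched among tested genes with a Swiss-Prot name and a mean of at least 5 CPM.

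Named were the 4 genes, the 3 genes most like each, and, in each list, every gene that passed and up to 2 genes of at least 1 CPM with the smallest edgeR p per comparison. Genes of the same name, neighbours and the other dioxygenase genes were added after values were seen. Lists were matched on Swiss-Prot names in the deposited descriptions. No sequence is shown: the reference table used here holds none and could not be matched to these identifiers.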

Additional observations from a re-analysis of the deposited data

Results flagged for a closer look

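A single lncRNA signal at these genes lay outside the comparisons. The transcript TCONS_00013611, whose deposited name marks it as an antisense transcript of the PYL4 gene (chromosome 1, 68842494 to 68843242), had 16 counts in severe drought 3 and 0 counts in the other 8 libraries, control included, where a count of 0 allows up to 3 counts. The count of the PYL4 gene in severe drought 3 was 162, so the transcript would be 9.88% of it if its reads are part of the gene count.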

How the results depend on the processing

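All 4 genes kept the direction of their differences from the control under every alternative run, single-library omissions included. They were chosen on these contrasts, and their drought and control libraries did not overlap. Leaving out a library could therefore not be expected to turn a direction, and no support is read from it. The same limit holds for the values against the control in the count that follows. Of 204 values of the 4 genes under alternatives, 192 kept their direction and, against the control, moved by less than 1 SD between libraries or, between the drought levels, stayed without a call at whatever size, 3 moved by more and 9 changed sign, all 9 between severe and mild drought, where the estimates lie near 0. DESeq2 called 208 genes in mild drought, 337 in severe drought and 23 between the drought levels, where edgeR called 0 in each. Among the other listed genes it called 3 in mild and 1 in severe drought. Limma on FPKM called 2 in mild drought, and edgeR on only the compared groups called 2 in severe drought. The cause was not tested. By CPM, which is not per length, PYL4 held 2.57% of its family in severe drought, and the phosphatases held 0.432% in control, 3.23% in mild drought and 2.84% in severe drought.

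With single libraries left out, the log2 difference in mild drought ranged from 2.98 to 4.24 for 2C 37, 2.43 to 3.48 for 2C 30 and -2.94 to -2.12 for PYL4. In severe drought it ranged from 2.90 to 4.20 for 2C 37 and 2.16 to 3.21 for 2C 30. Severe against mild drought ranged from -0.43 to 0.32 for 2C 68, -0.89 to 0.35 for 2C 30, -0.46 to 0.27 for 2C 37 and 0.20 to 1.02 for PYL4. The number of genes called ranged from 0 to 1 in each drought group, with the 1 call made without mild drought 3.

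Same-numbered libraries did not deviate together (correlations of -0.374 to 0.371), so the numbers were not taken as pairs. With the replicate block, 0 genes were called in each comparison, and 2C 37 had a log2 difference of 0.04 between severe and mild drought. The SE of that comparison was 0.17 with the block and 0.47 without it for 2C 68 (log2 -0.07 with the block), and 0.22 and 0.61 for 2C 30 (log2 -0.33), so the width of those intervals depends on the block.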
